A study of Mus musculus with 8 samples.

Results

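NIH3T3 cells that carried an Esrrb expression vector and received Hedgehog ligand were compared with empty-vector cells that received vehicle, to ask which mRNAs differed when both manipulations were present together. The comparison used 4 of the 8 samples of the series, 2 Control and 2 Esrrb+Hh-CM samples. Each sample had its own table of FPKM, which scales the fragments of a locus to its length and to the mapped fragments of the library. Loci were joined to annotated mm9 genes by position, and 20197 genes had a locus in all 8 samples. Of these, 10120 reached 1 FPKM in 2 or more of the compared samples. The 27 of them that were listed at exactly 0 in both samples of a group were set apart, which left 10093 genes for the test.

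NIH3T3 is a mouse embryonic fibroblast line. The Control group came from NIH3T3-pc3.1, stably transfected with the empty pcDNA3.1 (Zeo+) plasmid, and the Esrrb+Hh-CM group from NIH3T3-Esrrb, which has the same plasmid with an Esrrb cDNA. The 2 lines were selected separately with Zeocin and each pooled cells of 2 independent transfections, so that the vector and the history of the line cannot be told apart. Cells were treated at confluence for 48 h, in DMEM without phenol red but with newborn calf serum. The combined group received 1% Hh-CM, a medium conditioned by human embryonic kidney HEK293 cells that secrete N-terminal Sonic Hedgehog from a transgene. Vehicle was HEK293 medium made without that transgene and diluted alike. The remaining samples were 2 of Hh-CM (empty vector with Hh-CM) and 2 of Esrrb (Esrrb vector with vehicle). No label says that the 2 samples of a group are separate cultures, although the study's methods call them biological replicates, so p-values measure only the spread between these samples. An exact two-sided permutation test of 2 against 2 cannot go below p = 0.33, and all tests therefore come from one model across genes.

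Hedgehog ligands bind the receptor Ptch1, which then releases the membrane protein Smo, and Gli transcription factors carry the signal to target genes. Gli1, Ptch1 and Hhip are themselves targets, so their mRNAs are used as a readout of the pathway in fibroblasts. Esrrb is an orphan nuclear receptor of the estrogen-related receptor family that binds DNA without a known natural ligand and is best known from embryonic stem cells.

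The targeted gene was examined first. Esrrb (mm9 chr12:87702067-87862578) was listed at an FPKM of 0 in both Control and in both Esrrb+Hh-CM samples. Its relative Esrra, which most cells express, was also listed at 0 in all 4 samples, and an exact 0 is therefore given here only as a listed value. The mRNA values do not bear out the Esrrb part of the label, and the species of the cDNA is not given in the sources used here. By Western blot, the study reported more Esrrb protein in NIH3T3-Esrrb than in NIH3T3-pc3.1 cells, which is evidence on protein and not on these libraries. Esrrb+Hh-CM below means the libraries labelled Esrrb+Hh-CM, and every direction below is drawn between libraries named by their labels. The Hedgehog part of the label was borne out by Gli1 and Ptch1, described below.

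Depth relative to Control 1, read from the steps of the low values, was 1.17 in Control 2, 0.945 in Esrrb+Hh-CM 1 and 0.742 in Esrrb+Hh-CM 2, so the combined libraries were the shallower ones. The 2 samples of a group differed by at most 1 on the log2 scale in 98.1% of the genes in Control and 98.0% in Esrrb+Hh-CM. Fibroblast markers were high in all 4 samples, with a summed FPKM of 6352 and 6444 in Control and 7268 and 7318 in Esrrb+Hh-CM. Of 12 leukocyte markers, 2 passed the FPKM limit, and the summed FPKM was 2.47 and 2.96 in Control and 3.83 and 2.68 in Esrrb+Hh-CM, with Itgam, Cx3cr1 and Cd3e at 0 throughout. Of 5 endothelial markers, only the receptor Tek passed it, with a summed level of 0.111 and 0.157 in Control against 1.23 and 1.67, while Kdr was at 0 in all 4 samples. No epithelial, skeletal muscle or pluripotency marker on the lists passed the limit.

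For the test, limma estimated changes of log2(FPKM + 0.1) from all 8 samples together, with Benjamini-Hochberg adjustment. A gene was called when its adjusted p was below 0.05 and its log2 fold change was at least 1 in size. This called 609 of 10093 genes, 6.03%, of which 454 (4.5% of the genes tested) rose and 155 (1.54%) fell in Esrrb+Hh-CM. The changes reached 4-fold in 102 rises and 36 falls, and 16-fold in 8 rises and 4 falls. The falls of 16-fold include Myl6b and Sec31b, whose loci also covered a neighbouring gene in Control only, as described below. All called genes moved the same way in each of the 4 possible pairs of a Control and an Esrrb+Hh-CM sample, but 70.2% of all tested genes also had no overlap between the groups, so a gap between 2 and 2 samples is a low bar in these data. The median log2 fold change over all tested genes was 0.08. Values after ± are standard errors of the log2 fold change, and fold changes understate the change of genes near the added 0.1 FPKM. Because these are bulk samples, fewer cells of a type and less RNA per cell cannot be told apart for any gene below.

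**Figure D1:**
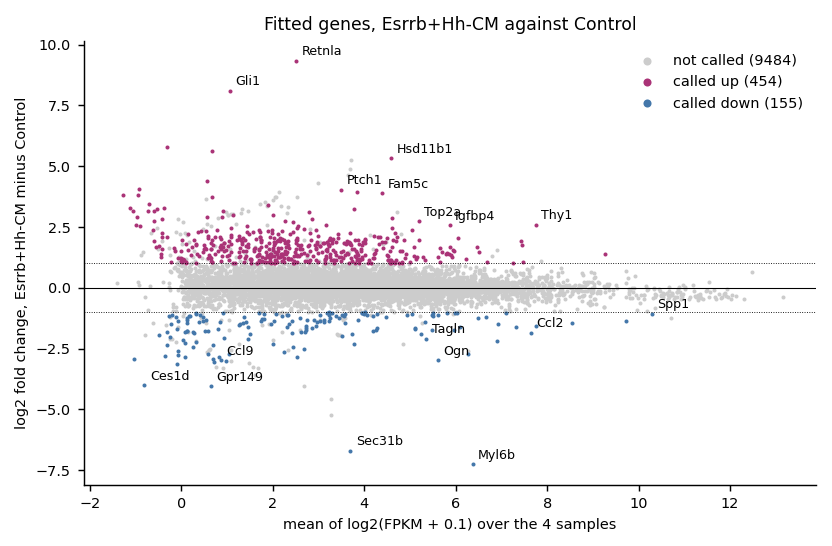
Log2 fold change of each of the 10093 tested genes (vertical axis, Esrrb+Hh-CM minus Control) against its mean log2(FPKM + 0.1) over the 4 samples (horizontal axis), with genes called up in purple, called down in blue and others in grey. Dotted lines mark a log2 fold change of 1 in size. The 454 rises outnumber the 155 falls, Retnla (9.33) and Gli1 (8.11) lie at the top, and Myl6b (-7.26) and Sec31b (-6.70) lie at the bottom. The loci of Myl6b and Sec31b also covered a neighbouring gene in Control only.

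Gli1 and Ptch1, the main readouts of the pathway, were far higher in Esrrb+Hh-CM than in Control, while most other Hedgehog genes were not called. Gli1, the target used most often as a readout of the pathway, had an FPKM of 0.0217 and 0.0308 in Control and of 34.5 and 34.8 in Esrrb+Hh-CM (log2 fold change 8.11 ± 0.20, adjusted p = 1.65e-05). Its Control values were close to 0, and its samples formed tight pairs at each end (mm9 chr10:126766945-126778645). Ptch1, the ligand receptor and a feedback inhibitor, had 2.44 and 2.98 in Control and 43.9 and 47.7 in Esrrb+Hh-CM (4.03 ± 0.11, adjusted p = 2.09e-05).

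Of the 34 genes on the Hedgehog list, 24 were tested, 7 rose (against 4.5% of all genes) and 1 fell (against 1.54%), and the median log2 fold change was 0.26. By role, 3 of 6 tested receptors and co-receptors rose, Ptch1 and Boc among them, and Gas1 fell. Gas1, a co-receptor that is reduced by pathway activity in many tissues, went from 281 and 273 FPKM in Control to 96.1 and 87.0 in Esrrb+Hh-CM (-1.60 ± 0.05, adjusted p = 2.67e-05). Boc, another co-receptor, had 2.56 and 2.47 in Control and 4.0 and 7.04 in Esrrb+Hh-CM, a rise that lay close to the threshold (1.05 ± 0.26, adjusted p = 0.0249) and fell below it once the values were rescaled by 1 factor per sample. Smo, the signal transducer, was not called (0.19). Of the 7 transcription factors and regulators, Gli1 and Gli2 rose. Gli2, the main activator, had 4.19 and 4.55 in Control and 15.1 and 14.3 in Esrrb+Hh-CM (1.73 ± 0.08). Gli3 (0.25), Sufu (0.24) and Kif7 (0.37) were not called.

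Of 11 tested target genes of mesenchyme, Hsd11b1 and Mycn rose. Hsd11b1, the enzyme that regenerates active glucocorticoid inside the cell, had 3.77 and 3.63 FPKM in Control and 167 and 137.5 in Esrrb+Hh-CM (5.32 ± 0.23, adjusted p = 5.02e-05). Mycn, a Myc family transcription factor, had 0.157 and 0.222 in Control and 1.49 and 1.30 in Esrrb+Hh-CM (2.37 ± 0.24). It had 0.376 and 0.407 in Hh-CM and 1.01 and 0.832 in Esrrb, and was called against Hh-CM (1.6) but not against Esrrb (0.55, adjusted p = 0.165). The D cyclins Ccnd1 (-0.27) and Ccnd2 (-0.24) and the survival gene Bcl2 (0.07), which are targets in other tissues, were not called. The ligands Shh, Ihh and Dhh and the decoy receptor Hhip did not reach an FPKM of 0.1 in any of the 4 samples, and Hhip was listed at 0 in all of them.

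The state shared its Esrrb+Hh-CM samples with 2 further comparisons, and their values are given side by side. Against Hh-CM, where 1.77% of the genes were called, Mycn was among the Hedgehog genes called and Gli1 (log2 fold change 0.34, adjusted p = 0.289) and Ptch1 (0.31, adjusted p = 0.103) were not called. Gli1 had 26.8 and 28.1 FPKM in Hh-CM, below both Esrrb+Hh-CM samples. Hsd11b1 had 78.9 and 76.8 in Hh-CM (0.96, adjusted p = 0.0382) and missed the fold threshold. Against Esrrb, where 4.75% of the genes were called, Gli1, Ptch1, Gli2 and Hsd11b1 were higher in Esrrb+Hh-CM and Gas1 was lower.

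Retnla, which encodes a small secreted protein of the resistin family best known from alternatively activated macrophages, had the highest fitted rise. It was listed at 0 and 0.403 FPKM in Control and at 144 and 144 in Esrrb+Hh-CM (9.33 ± 0.69, adjusted p = 0.000295), a size that depends on the added 0.1 FPKM because of the 0. In Hh-CM it had 35.1 and 41.6 and in Esrrb 1.04 and 1.14, so both single states lay between the Control and the combined values. The difference of Esrrb+Hh-CM from Hh-CM was 1.91 with an adjusted p of 0.106 and was not called, and that from Esrrb was 6.92 with an adjusted p of 0.00119. Retn, the founding member of the family, was low (1.65 and 2.10 in Control, 0.868 and 1.33 in Esrrb+Hh-CM) and not called, and Retnlb and Retnlg did not pass the limit. No tested leukocyte marker was called beside Retnla. Of the macrophage markers, Adgre1 had at most 0.0553 FPKM in any of the 4 samples, Mrc1 at most 0.0129, and Arg1 at most 0.0418. The 2 leukocyte markers that passed the limit had log2 fold changes of 0.25 and 0.70.

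**Figure D2:**
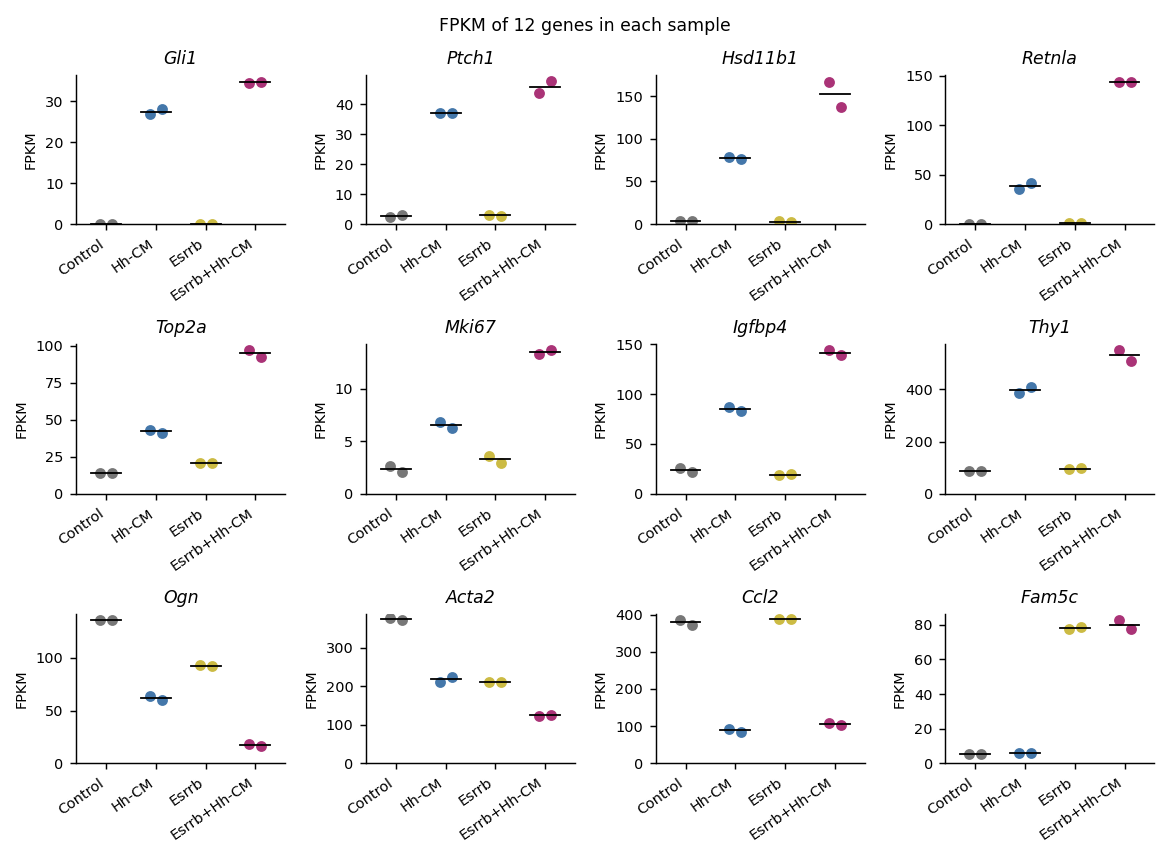
FPKM (vertical axes, each from 0) of 12 genes in each of the 8 samples, grouped by the label of the sample, with 1 point per sample and a bar at the mean of the 2 samples. Top2a stands at 14 and 14.2 in Control and at 97.1 and 92.8 in Esrrb+Hh-CM with both single states in between, Acta2 falls from 377 and 372 to 124 and 125, and Fam5c is high only in the 4 libraries labelled with Esrrb.

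Genes of mitosis rose together. Of 57 listed genes for mitosis and cytokinesis, 55 were tested and 53 rose, against 4.5% of all genes. None fell, and at an unadjusted p below 0.05 by limma, the only tool run, 55 were higher and 0 lower. Over all 10093 tested genes, 3020 (29.9%) were higher and 1579 (15.6%) lower at that limit, the background for each such count below. The median log2 fold change was 1.89 and the range 0.79 to 2.75. Smc4 (0.79) and Hmgb2 (0.99) missed the fold threshold, and Ccnb2 and Mybl2 were not matched to a locus in every sample. All 19 tested cyclins, kinases and anaphase regulators rose, as did 34 of 36 genes for chromosomes, spindle and cytokinesis.

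Top2a, the topoisomerase that untangles chromosomes before they separate, led the list. It had 14 and 14.2 FPKM in Control and 97.1 and 92.8 in Esrrb+Hh-CM (2.75 ± 0.04, adjusted p = 4.58e-06, mm9 chr11:98854257-98885503). Mki67, the antigen that marks cycling cells, had 2.66 and 2.11 in Control and 13.3 and 13.7 in Esrrb+Hh-CM (2.46 ± 0.14). The groups did not overlap for either gene, which was also so for 70.2% of all tested genes, and the 2 samples within a group were close.

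Plk1, a kinase of mitotic entry, rose from 3.59 and 3.75 to 16.4 and 16.6 FPKM (2.14 ± 0.07), and Cdc25c, the phosphatase that activates Cdk1, from 1.17 and 1.07 to 6.03 and 5.67 (2.29 ± 0.16), although its locus covered another annotated gene in all 4 samples. Among genes of the kinetochore, where chromosomes attach to the spindle, Cenpf went from 1.37 and 1.37 to 7.16 and 7.22 (2.31 ± 0.11). Ttk, the checkpoint kinase there, went from 1.32 and 1.18 to 6.66 and 6.2 (2.28 ± 0.12). Birc5, a subunit of the chromosomal passenger complex, went from 12.7 and 13.0 to 52.9 and 55.4 (2.07 ± 0.06). Foxm1, a transcription factor of this programme, rose from 4.85 and 4.84 to 19.2 and 19.1 (1.96 ± 0.06). The locus of Foxm1 also covered another coding gene in some or all of the 4 samples. The mitotic cyclins Ccna2 (1.94) and Ccnb1 (1.96) and their kinase Cdk1 (1.37) rose as well.

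The mitotic genes were also compared between the combined state and each single state, while the single states were not tested against Control. Against Hh-CM, 14 of the 55 mitotic genes were called, all higher, with a median log2 fold change of 0.89. Against Esrrb 54 were called, all higher, with a median of 1.57. Over all genes, 1.77% were called against Hh-CM and 4.75% against Esrrb. Of the single-state libraries, Esrrb 1 and Hh-CM 2 shared the bounds and numbers of 8080 assembled loci. Without Esrrb 1, 53 mitotic genes were called against Esrrb, and without Hh-CM 2, 9 were called against Hh-CM, all higher, and Mki67 was not among these 9. Top2a had 43.2 and 41.2 FPKM in Hh-CM and 20.8 and 20.7 in Esrrb, and the combined libraries exceeded Hh-CM by 1.17 on the log2 scale (adjusted p = 0.000109) and Esrrb by 2.19 (adjusted p = 1.43e-05). Mki67 had 6.83 and 6.23 in Hh-CM and exceeded it in the combined libraries by 1.03 (adjusted p = 0.00783).

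Promoters of the mitotic genes are shown because most of the list moved together. The sequences are from RefSeq on GRCm38.p6, a later build than that of the gene coordinates above, and cover 250 bases before to 50 bases after each start, of which the 100 bases before the start are printed 5′ to 3′ on the strand of the gene. Promoters of 48 of the 55 tested genes were in the table. Motifs were searched on both strands, and capitals mark TTTGAA or its reverse complement TTCAAA, the core of the cell cycle homology region, and CCAAT or its reverse complement ATTGG, the NF-Y box.
Top2a (chr11:99024190-99024289, minus strand): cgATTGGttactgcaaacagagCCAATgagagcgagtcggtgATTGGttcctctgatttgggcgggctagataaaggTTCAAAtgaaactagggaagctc
Ckap2l (chr2:129297213-129297312, minus strand): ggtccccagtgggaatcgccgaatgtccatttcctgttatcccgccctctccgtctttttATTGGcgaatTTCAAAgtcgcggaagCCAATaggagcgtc
Ube2c (chr2:164769829-164769928, plus strand): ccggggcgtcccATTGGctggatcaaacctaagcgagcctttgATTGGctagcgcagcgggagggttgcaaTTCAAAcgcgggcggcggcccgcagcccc
Mki67 (chr7:135716380-135716479, minus strand): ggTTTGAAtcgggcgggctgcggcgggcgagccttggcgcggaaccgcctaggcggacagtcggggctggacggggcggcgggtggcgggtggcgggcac

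In Top2a, Ckap2l and Ube2c the 6-base motif began 23, 30 and 29 bases before the start, with 3, 2 and 2 CCAAT boxes in the printed window. In Mki67 it began 98 bases before the start and the window held no CCAAT box. Printed were the called genes with the largest rises whose 100 bases held the 6-base motif, so its presence there was fixed by the choice. Called genes with larger rises but no such window were passed over, and promoters on chromosome 18 were not considered. Ckap2l, a spindle protein, rose by 2.05 and Ube2c, the ubiquitin carrier of the anaphase-promoting complex, by 1.98 on the log2 scale. Over whole promoters, TTTGAA was present in 35 of 48 mitotic genes (72.9%), against 20.2% of all 27025 genes with a promoter and 14% of the tested genes. CCAAT was present in 72.9% against 41.1% of all genes. Both motifs were present in 62.5% against 8.97%, and they shared bases in 1 of the mitotic promoters. TTTGAA stood in 29.7% of the promoters of genes called up and in 11.5% of those called down. These are descriptions of letters in a window, and no binding was measured.

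Genes for DNA replication and S phase rose to a smaller extent. Of 49 listed genes, 47 were tested and 35 rose, against 4.5% of all genes, with a median log2 fold change of 1.16 and a range of 0.40 to 2.09. None fell, and at an unadjusted p below 0.05 by limma 46 were higher and 0 lower, against 29.9% and 15.6% of all genes. Among genes of licensing and the replication fork, 16 of 26 rose, and among genes of nucleotides, chromatin and repair, 19 of 21. With the samples rescaled, 30 rose.

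Mcm10, which helps to start the fork, had 1.67 and 1.33 FPKM in Control and 6.57 and 6.75 in Esrrb+Hh-CM (2.09 ± 0.18, adjusted p = 0.000576). Tk1, the thymidine kinase of S phase, had 8.86 and 10.2 in Control and 49.6 and 32.8 in Esrrb+Hh-CM (2.07 ± 0.20), with the combined samples apart from each other but both above Control. Pole, the catalytic subunit of the leading-strand polymerase, rose from 1.04 and 1.11 to 4.17 and 4.72 (1.95 ± 0.12).

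E2f8, a repressive E2F factor, rose from 1.34 and 1.89 to 6.96 and 6.0 (1.95 ± 0.20), and Brca1, a repair factor, from 1.13 and 1.28 to 4.43 and 4.93 (1.87 ± 0.12). The helicase subunits Mcm3, Mcm4, Mcm5 and Mcm6 rose by 1.00 to 1.29. Cdc6, which loads the helicase, had 0.866 and 2.52 in Control and 4.52 and 3.92 in Esrrb+Hh-CM and was not called (1.44 ± 0.50, adjusted p = 0.0734). Its partner Cdt1 (0.40) and the factor E2f1 (0.65) were not called. Against Hh-CM 3 of the 47 replication genes were called, all higher, where 1.77% of all genes were called. Against Esrrb 24 were called, all higher, where 4.75% of all genes were called. Without Hh-CM 2 and Esrrb 1 in turn these counts were 1 and 26, and neither Mcm10 nor Tk1 was called against Hh-CM.

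The E2F motif TTTNNCGC, searched on both strands, stood in 17 of 37 promoters of the replication list (45.9%), against 5.93% of all genes, 10.6% of the tested genes and 12.5% of the mitotic promoters. Windows of 100 bases before the start of Uhrf1, a factor that maintains DNA methylation, Mcm6 and Gins3, a fork subunit, show it in capitals. As with the mitotic genes, a window was shown only if it held the motif, so its presence there was fixed by the choice. Replication genes with larger rises, Mcm10 and Tk1 among them, are not shown, so these windows are not typical of the list.
Uhrf1 (chr17:56303237-56303336, plus strand): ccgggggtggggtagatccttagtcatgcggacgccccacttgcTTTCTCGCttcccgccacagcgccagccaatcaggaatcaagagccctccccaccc
Mcm6 (chr1:128359706-128359805, minus strand): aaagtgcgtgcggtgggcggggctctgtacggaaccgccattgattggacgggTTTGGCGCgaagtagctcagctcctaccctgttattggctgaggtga
Gins3 (chr8:95633459-95633558, plus strand): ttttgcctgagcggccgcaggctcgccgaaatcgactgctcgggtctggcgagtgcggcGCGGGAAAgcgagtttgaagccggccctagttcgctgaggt
The log2 rises of Uhrf1, Mcm6 and Gins3 were 1.14, 1.13 and 1.07. By the same search, GACCACCCA, the Gli site, was in 0 of 15 promoters of the Hedgehog list and in 2 of 316 promoters of genes called up (0.633%), against 0.289% of all genes. Only 15 of the 24 tested Hedgehog genes had a promoter available. Gli1 had none, so its promoter was not searched. TCAAGGTCA, the site of estrogen-related receptors, was in 0 of 316 promoters of genes called up and 1 of 96 called down, against 0.466% of all genes. No match says only that these letters are not in this window.

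**Figure D3:**
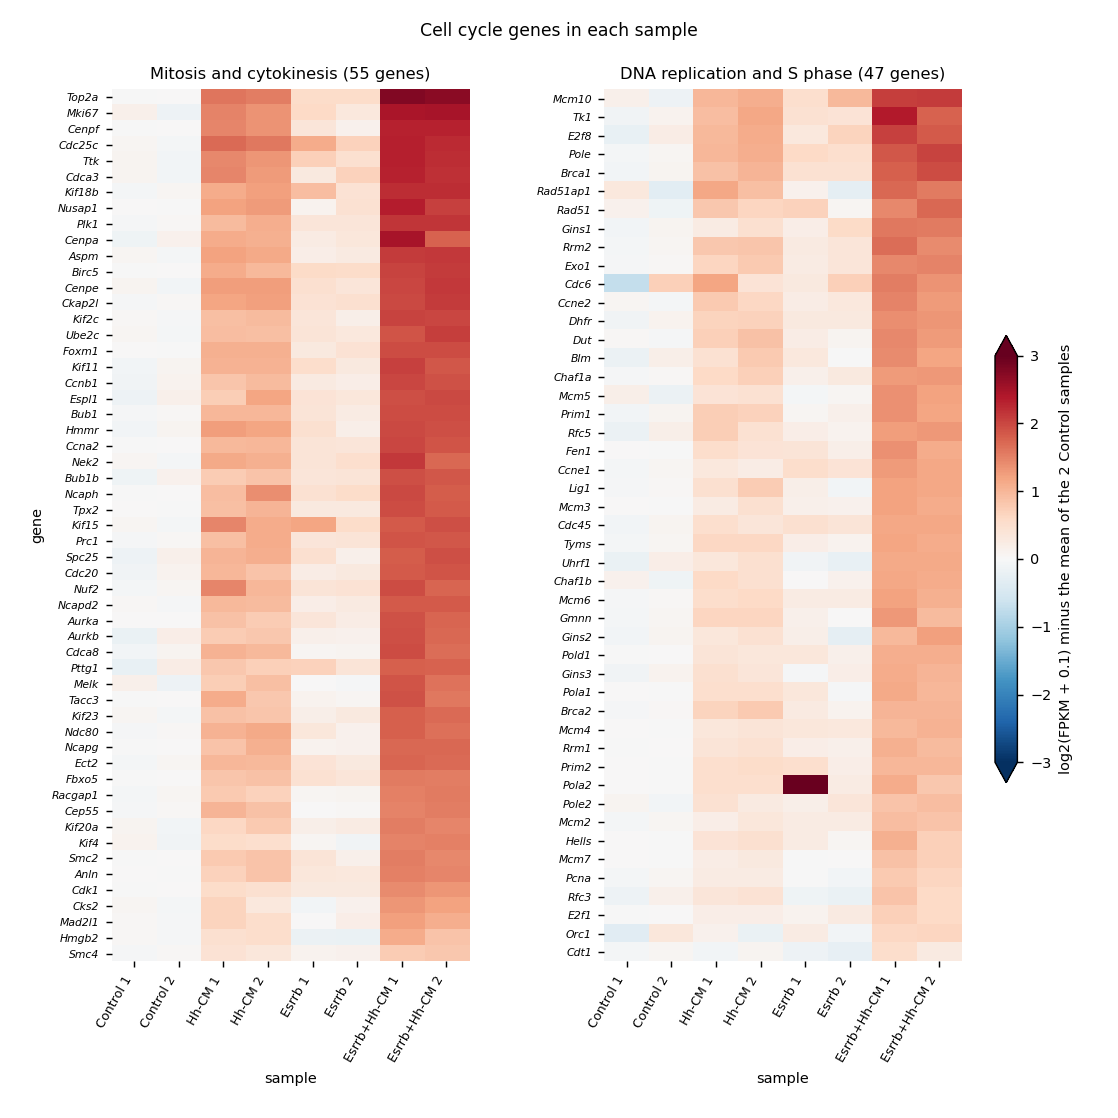
Heat map of log2(FPKM + 0.1) minus the mean of the 2 Control samples for the 55 tested mitotic genes (left) and 47 tested replication genes (right), with 1 line per gene ordered by log2 fold change and 1 column per sample, on a colour scale from -3 (blue) to 3 (red). The 2 Esrrb+Hh-CM columns are the reddest in nearly every line, and the Hh-CM columns are redder than the Esrrb columns in most lines.

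Other genes of the cell cycle moved less, and their counts stand beside the 4.5% of all genes that were called up. Of 17 tested G1 cyclins, inhibitors and Myc genes, 5 rose, of which Mycn stands on the Hedgehog list and the E cyclins Ccne1 (1.23) and Ccne2 (1.38) on the replication list as well. Another locus on the bases of Ccne2 had 13.3 and 13.75 FPKM in Control and 17.2 and 18.5 in Esrrb+Hh-CM, against 2.81 and 2.61 and 7.74 and 6.66 for Ccne2 itself. The inhibitor Cdkn2d rose by 1.06, as did the pocket protein Rbl1 by 1.03, and both lay close to the fold threshold. Myc was not called (-0.61). Of 11 tested p53 targets none was called by limma, while 5 were higher and 1 was lower at an unadjusted p below 0.05, and the p53 target and inhibitor Cdkn1a had a log2 fold change of 0.57. Of 9 tested tubulins and related genes, 3 rose: Stmn1, a microtubule destabiliser, by 1.70, Tubb4b by 1.47 and Tubg1, the tubulin of the centrosome, by 1.03. Stmn1 had 32.5 and 32.0 FPKM in Control and 107 and 102 in Esrrb+Hh-CM.

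Some genes of the matrix and the contractile apparatus fell. Of 9 tested small leucine-rich proteoglycans, which bind collagen fibrils, 3 fell and none rose, against 1.54% of all genes called down. At an unadjusted p below 0.05 by limma, 1 was higher and 6 were lower, against 29.9% and 15.6% of all genes. Ogn had 136 and 136 FPKM in Control and 18.5 and 16.2 in Esrrb+Hh-CM (-2.97 ± 0.07, adjusted p = 1.46e-05). Hh-CM (63.9 and 59.8) and Esrrb (93.3 and 91.9) lay in between, and the combined libraries were lower than each (-1.83, adjusted p = 0.000125, and -2.41, adjusted p = 2.83e-05). Aspn fell from 252 and 258 to 54.8 and 57.1 (-2.19 ± 0.04). Fmod fell from 11.4 and 12 to 1.79 and 1.80 (-2.64 ± 0.08).

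Of 32 tested collagens and collagen enzymes, 6 rose (against 4.5% of all genes) and 1 fell, with a median of 0.22. Col12a1, a fibril-associated collagen, rose from 3.22 and 3.03 FPKM to 15.7 and 14.9 (2.26 ± 0.08). The basement membrane chains Col4a1 (48.3 and 49.7 to 159 and 159) and Col4a2 (36.2 and 35.4 to 104 and 106) rose by 1.70 and 1.55. The enzyme Plod3 rose by 1.26, from 38.3 and 39.5 to 94.8 and 91.5. A neighbouring locus that overlaps its own had 20.6 and 22.0 in Control and 0 and 0 in Esrrb+Hh-CM, and the part of shared reads in this rise was not tested. Col16a1 rose by 1.07 and Col5a2 by 1.00, and Col8a1 fell by 1.00. The abundant fibrillar chains Col1a1 (0.39), Col1a2 (0.04) and Col3a1 (0.67) were not called, nor was the crosslinking enzyme Lox (-0.91). With the samples rescaled, 4 rose and 1 fell.

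Of 21 tested matricellular and matrix-associated proteins, 1 rose and 6 fell, against 4.5% and 1.54% of all genes. Spp1, the phosphoprotein osteopontin, had 1776 and 1861 FPKM in Control and 887 and 842 in Esrrb+Hh-CM (-1.07 ± 0.04). Thbs1, a matrix glycoprotein, fell from 115.5 and 120.4 to 36.8 and 41.3 (-1.60 ± 0.06), and Ccn5, a CCN family protein, from 82.1 and 81.1 to 25.1 and 23.8 (-1.74 ± 0.04). Ccn3 (-1.41), Dpt (-1.13) and the microfibril protein Mfap4 (-1.10) fell too. The proteoglycan Vcan rose by 1.20. Of 11 tested matrix metalloproteinases and inhibitors, the inhibitor Timp4 fell from 5.03 and 4.30 to 0.489 and 0.624 (-2.86 ± 0.22) and no other was called.

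Of 23 tested contractile genes and targets of SRF and YAP, 7 fell, against 1.54% of all genes, and none rose, with 2 higher and 16 lower at an unadjusted p below 0.05 by limma (29.9% and 15.6% of all genes). By role, 6 of 14 contractile genes fell and 1 of 9 SRF and YAP target genes did. Acta2, smooth muscle actin, fell from 377 and 372 FPKM to 124 and 125 (-1.59 ± 0.04, adjusted p = 1.46e-05), with Hh-CM at 212 and 225 and Esrrb at 210 and 212.5. The actin-binding Tagln fell from 83.2 and 85.2 to 21.6 and 17.9 (-2.09 ± 0.08), and the light chain Myl9 from 35.3 and 35.1 to 10.0 and 10.8 (-1.75 ± 0.06). Lmod1 (-2.73), Actg2 (-2.02), the light chain kinase Mylk (-1.59) and the YAP target Ankrd1 (-1.66) fell as well. Actg2 was low, with 1.52 and 1.67 in Control and 0.178 and 0.529 in Esrrb+Hh-CM, and its call was lost without either Control sample.

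Secreted signals of inflammation were mostly lower. Of 13 tested chemokines, cytokines and receptors, 7 fell, against 1.54% of all genes, and 1 rose, with a median of -1.21. Ccl2, the monocyte chemoattractant, had 386 and 372 FPKM in Control and 108 and 102 in Esrrb+Hh-CM (-1.85 ± 0.05, adjusted p = 2.55e-05). The neutrophil chemoattractants Cxcl5 (624.5 and 606 to 232 and 221, -1.44) and Cxcl1 (113 and 115 to 36.3 and 32.3, -1.73) fell alongside it. Ccl9 (-2.97), Ccl5 (-1.33), Ccl7 (-1.21) and the interleukin-33 receptor Il1rl1 (-1.25) completed the falls. Il6, a cytokine of the acute phase response, rose from 1.91 and 1.26 to 8.74 and 7.70 (2.33 ± 0.23).

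Ccl2 and Cxcl5 in Hh-CM were near the combined values. Ccl2 had 92.6 and 84.9 FPKM in Hh-CM and 387 and 387 in Esrrb, and Cxcl5 had 213 and 213 in Hh-CM and 734 and 762 in Esrrb. Of 9 tested acute phase and complement genes, 4 rose and 1 fell, against 4.5% and 1.54% of all genes. Steap4, a metalloreductase, rose from 14 and 14.9 to 77.2 and 74.3 (2.38 ± 0.05), and Saa1, a serum amyloid, from 0.386 and 0.723 to 7.16 and 4.26 (3.15 ± 0.34). The haemoglobin-binding Hp rose by 1.53 and the ferroxidase Cp by 1.06, while the siderophore-binding Lcn2 fell by 1.75. Saa3 was abundant in both groups, with 1351 and 1265 in Control and 863 and 832 in Esrrb+Hh-CM, and was not called (-0.63). Of 14 tested interferon and antigen presentation genes, Irf7 rose by 1.34 and no other was called.

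Both insulin-like growth factors and some of their binding proteins were higher in Esrrb+Hh-CM. Of 11 tested genes, 5 rose, against 4.5% of all genes, and none fell, with 8 higher and 0 lower at an unadjusted p below 0.05 by limma (29.9% and 15.6% of all genes). The ligand Igf2 had 374.5 and 384 FPKM in Control and 1010 and 956 in Esrrb+Hh-CM (1.37 ± 0.04), and Igf1 had 3.36 and 3.15 in Control and 9.74 and 8.74 in Esrrb+Hh-CM (1.48 ± 0.08). Of the 4 tested binding proteins, 3 rose. Igfbp4 had 25.9 and 22.1 in Control and 144 and 139.5 in Esrrb+Hh-CM (2.56 ± 0.09), Igfbp5 1.66 and 1.61 against 8.65 and 9.35 (2.39 ± 0.10), and Igfbp7 94.2 and 97.3 against 350 and 296 (1.75 ± 0.09). The receptors Igf1r (0.30), Igf2r (0.31) and Insr (-0.07) were not called. The 2 ligands differed by state: Igf2 had 345 and 362 in Hh-CM and 1153 and 1148 in Esrrb, while Igf1 had 8.06 and 8.44 in Hh-CM and 6.6 and 6.61 in Esrrb.

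Other signalling lists are given beside the 4.5% of all genes that were called up and the 1.54% called down. Of 12 tested Wnt genes, 2 rose, the receptor Fzd4 (1.83 ± 0.06) and the secreted antagonist Sfrp2 (2.03 ± 0.10). Sfrp2 had 8.13 and 7.75 FPKM in Control, 3.47 and 4.33 in Hh-CM, 85.5 and 87.2 in Esrrb and 33.5 and 31.8 in Esrrb+Hh-CM, so the combined value lay between the single states, above Hh-CM by 3.04 (adjusted p = 8.41e-05) and below Esrrb by 1.40 (log2 fold change -1.40, adjusted p = 0.000416). Of 10 tested BMP genes, the antagonist Fst (-1.83) and the inhibitory Smad7 (-1.76) fell and none rose, with 2 higher and 5 lower at an unadjusted p below 0.05 by limma. The Notch target Hes1 rose from 0.550 and 0.725 to 3.27 and 2.70 (2.07 ± 0.24), and stood at 8.6 and 8.35 in Hh-CM and at 0.117 and 0.0514 in Esrrb. Of 15 tested PDGF and FGF genes, the ligand Pdgfc rose by 2.03 and the phosphatase Dusp4 fell by 2.14.

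Most Hox genes could not be tested. Of 34 listed, 18 stayed below the FPKM limit, 7 were not matched to a locus in every sample and 9 were tested, of which 4 rose, against 4.5% of all genes, all from the HoxD cluster. Hoxd8 had 32.5 and 32.9 FPKM in Control and 139 and 129.5 in Esrrb+Hh-CM (2.03 ± 0.10), Hoxd9 6.58 and 7.85 against 30.5 and 27.0 (1.98 ± 0.11), Hoxd3 5.21 and 4.97 against 14.4 and 17.2 (1.61 ± 0.27), and Hoxd10 0.114 and 0.129 against 2.39 and 1.43 (3.14 ± 0.28). The locus of Hoxd3 also covered Hoxd4 in all 4 samples, so the genes cannot be told apart, and its call against Esrrb was lost without Esrrb 1 (1.12, adjusted p = 0.12). Hoxd11, Hoxd13 and Hoxd1 stayed under 0.1 in all 4 samples. The tested members of the other clusters, Hoxa4, Hoxa7, Hoxc6 and Hoxc9 among them, were not called. Hoxc9 had the lowest value, -1.83 with an adjusted p of 0.153. Hoxd8 had 66.3 and 68.4 in Hh-CM and 63.2 and 50.6 in Esrrb, both between Control and the combined level.

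Of 9 tested retinoid genes, Cyp26b1, which degrades retinoic acid, rose from 1.63 and 1.88 to 12.2 and 12.5 (2.75 ± 0.11) and Crabp2, which carries it to the nucleus, fell from 2.69 and 2.52 to 0.378 and 0.603 (-2.22 ± 0.42). Of 12 tested genes of the glucocorticoid axis, Hsd11b1 rose, and Aldh1a7 (-2.71) and Ankrd1 (-1.66) fell. The receptor target Fkbp5 (0.89) and Sgk1 (-0.91) missed the fold threshold in opposite directions. Of 14 clock and PAR bZIP genes, Hlf rose from 2.28 and 2.37 to 11.2 and 11.1 (2.22 ± 0.07) and no other was called. Of 7 tested adipogenic genes, the fatty acid carrier Fabp4 fell by 2.32. These counts stand beside the 4.5% of all genes that were called up and the 1.54% called down.

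Among 6 tested coregulators of estrogen-related receptors, the coactivator Ppargc1a fell from 2.57 and 2.75 to 0.377 and 0.457 (-2.42 ± 0.16). It had 2.67 and 2.84 in Hh-CM and 0.234 and 0.246 in Esrrb, so it was low in all 4 libraries labelled with Esrrb and in no other. Pprc1, Nrip1, Ncoa1, Ncoa2 and Ncoa3 were not called, and 1.54% of all genes were called down. The respiratory chain and citrate cycle, where this receptor family is known to act, held 43 tested genes with a median log2 fold change of -0.06 and a range of -0.29 to 0.40. None of them was called by limma, and at an unadjusted p below 0.05, 6 were higher and 5 lower.

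Several further lists held no call by limma, and the shares of all genes at an unadjusted p below 0.05 were 29.9% higher and 15.6% lower. Glycolysis and hypoxia had 28 tested genes (2 higher and 15 lower at an unadjusted p below 0.05), and cholesterol and fatty acid synthesis had 30 (11 higher and 3 lower). The unfolded protein response had 17 (3 higher and 4 lower), and the primary cilium, the organelle of Hedgehog signalling, had 19 (1 higher and 3 lower). Ribosomal protein genes had 24 (0 higher and 17 lower), with a median of -0.25 and all 24 values below 0. Their medians other than that of the ribosomal proteins were between -0.13 and 0.07.

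The lists share members. A list of genes measured by qPCR was chosen on these samples, so its count is not independent evidence. Of its 14 tested genes, 9 rose and 2 fell, against 4.5% and 1.54% of all genes. Smoc2 (-0.45), Saa3 (-0.63) and Pdcd4 (0.81) were not called. The surface protein Thy1, a fibroblast marker, rose from 88.0 and 87.3 to 551 and 510 (2.59 ± 0.05), with 385 and 410 in Hh-CM and 94.8 and 97.8 in Esrrb. The endothelial receptor Tek rose from 0.0702 and 0.108 to 1.11 and 1.51 (2.89 ± 0.31), while Pecam1 had at most 0.110 and Kdr 0 in the same libraries.

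**Figure D4:**
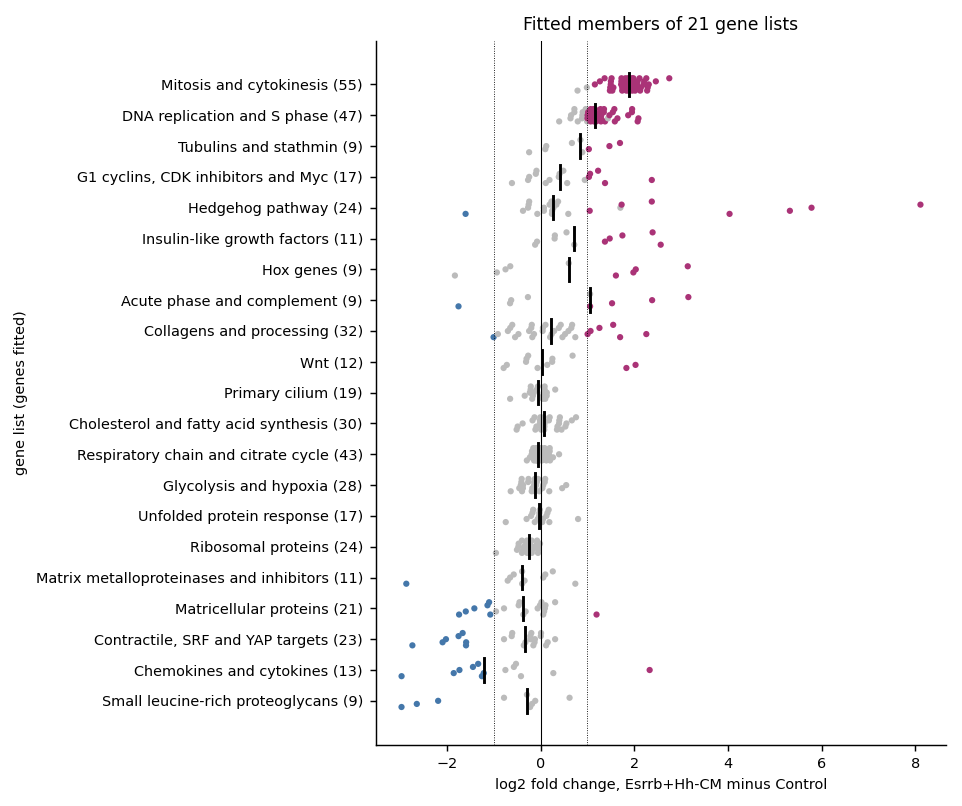
Log2 fold change (horizontal axis, Esrrb+Hh-CM minus Control) of the tested members of each gene list (vertical axis, number tested in parentheses), with 1 point per gene, purple where called up, blue where called down and grey otherwise, and a black bar at the median of the list. The mitotic genes lie between 0.79 and 2.75, most chemokines lie below 0 with a median of -1.21, and the metabolic lists lie close to 0.

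Outside the lists, several large changes went with 1 of the 2 labels. Fam5c had 5.28 and 5.43 FPKM in Control, 5.93 and 5.72 in Hh-CM, 77.4 and 78.7 in Esrrb and 82.6 and 77.7 in Esrrb+Hh-CM (3.88 ± 0.05). It was high in the 4 libraries labelled with Esrrb and was not called between the combined state and Esrrb (0.04, adjusted p = 0.638). Adamts15, a matrix protease, had 0.327 and 0.344 in Control and 5.26 and 6.12 in Esrrb+Hh-CM (3.73 ± 0.17). Wt1, a transcription factor of the kidney and gonad, had 0.0216 and 0.0368 in Control, 2.15 and 1.97 in Esrrb+Hh-CM (4.06 ± 0.46) and 3.22 and 7.31 in Esrrb.

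Usp2, a deubiquitinase, had 1.13 and 0.944 FPKM in Control, 6.51 and 7.47 in Hh-CM and 11.9 and 12.2 in Esrrb+Hh-CM (3.42 ± 0.20). Cmpk2 (3.82 ± 0.38), a mitochondrial nucleotide kinase, Icosl (3.30 ± 0.28), a costimulatory ligand, and Pik3c2b (3.29 ± 0.29), a lipid kinase, had at most 0.156 in Control and between 1.22 and 2.47 in Esrrb+Hh-CM. Cmpk2, Icosl and Pik3c2b were above Control in Hh-CM as well, with 0.526 to 1.00 FPKM. In Esrrb, Usp2 had 1.49 and 2.26, Cmpk2 0.172 and 0.172, Icosl 0.173 and 0.177, and Pik3c2b 0.119 and 0.251. Against Hh-CM, Pik3c2b was called higher (1.19, adjusted p = 0.0406), close to the thresholds. Usp2 (0.78, adjusted p = 0.0478), Cmpk2 (1.05, adjusted p = 0.106) and Icosl (1.07, adjusted p = 0.05002) were not called.

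Among the falls, Gpr149, an orphan receptor, had 5.59 and 6.99 FPKM in Control, 5.36 and 4.88 in Hh-CM, 0.314 and 0.496 in Esrrb and 0.264 and 0.304 in Esrrb+Hh-CM (-4.05 ± 0.22). The carboxylesterase Ces1d (-4.01 ± 0.28), the sarcoglycan Sgcd (-3.13 ± 0.17), the secreted Fibin (-3.04 ± 0.22), the kinase inhibitor Pkia (-3.0 ± 0.13) and the microtubule protein Mtap2 (-2.94 ± 0.29) were also low in the libraries labelled with Esrrb. In each of these 6 genes every library labelled with Esrrb lay below every empty-vector library, and none was called between Esrrb+Hh-CM and Esrrb. The genes were taken from the largest falls against Control, so the gap between Control and Esrrb+Hh-CM was fixed by the choice. They were grouped here by their values in the single states. The share of all tested genes with the same separation was not counted. The protease Htra3 (-2.92 ± 0.26) followed the other label, with 4.68 and 4.01 in Control, 0.730 and 0.917 in Hh-CM, 3.63 and 6.05 in Esrrb and 0.484 and 0.490 in Esrrb+Hh-CM.

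The position of loci touched some of these values. Myl6b fell from 999 and 1050 FPKM to 7.32 and 5.92 (-7.26) and Sec31b from 129 and 135 to 0.998 and 1.37 (-6.70). In both Control samples, and in neither Esrrb+Hh-CM sample, the locus of Myl6b also covered the neighbouring gene Myl6 and that of Sec31b covered Ndufb8. Ramp2, a receptor partner, rose from 3.2 and 4.0 to 57.2 and 55.8 (3.94 ± 0.19), and in Esrrb+Hh-CM its locus also covered Vps25. Such a locus, covering another coding gene in both samples of 1 group only, was found for 7 of the 609 called genes, and 602 calls remain without them. Counting a locus that covers another coding gene in any of the 4 samples, as those of Hoxd3 and Cdc25c do in all 4, gave 37 of the 609. The share of genes with identical locus bounds in the 4 samples was 64.5% among tested and 68.8% among called genes.

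The 27 genes set apart were at 0 in both Control samples (17 genes) or in both Esrrb+Hh-CM samples (10 genes), and no fold change is given for them. Il4i1, a secreted amino acid oxidase, was listed at 0 and 0 in Control and at 40.6 and 42.4 FPKM in Esrrb+Hh-CM, with 29.0 and 30.5 in Hh-CM and 29.5 and 27.3 in Esrrb. Its locus also covered Nup62 in all 4 compared samples. Pltp, which transfers phospholipids between lipoproteins, was at 0 and 0 in Control and at 12.6 and 17.8 in Esrrb+Hh-CM, with 34.7 and 25.2 in Hh-CM and 0 and 0 in Esrrb. Trappc4, a subunit of a vesicle tether, was at 0 in Control and at 25.5 and 25.9 in Esrrb+Hh-CM, and went from 28.7 to 0 between the 2 Hh-CM samples. Klhdc9, Fbxl2 and Agbl5 had 3.83 to 6.05 in Esrrb+Hh-CM.

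On the other side, Ndufs1, a subunit of respiratory complex I, was listed at 50.8 and 54.0 FPKM in Control and at 0 and 0 in Esrrb+Hh-CM, and at 0 and 51.4 in the 2 Hh-CM samples. Znhit1, a chromatin remodelling subunit, had 20.6 and 22.0 and Gps2, a corepressor subunit, 15.1 and 14.8 in Control, and both were at 0 only in Esrrb+Hh-CM. The locus of Znhit1 overlaps that of Plod3, which was called up. Xrcc4, Ankrd37 and Rundc3a had 7.30 to 8.55 in Control. Genes that every cell uses thus stood at 0, and replicates of 1 group split between 0 and a high FPKM. Of the 27 genes, 22 had the same locus bounds in the 4 samples and 15 had another locus on the same bases in all 4, and the part of the assembly in these values was not tested.

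**Figure D5:**
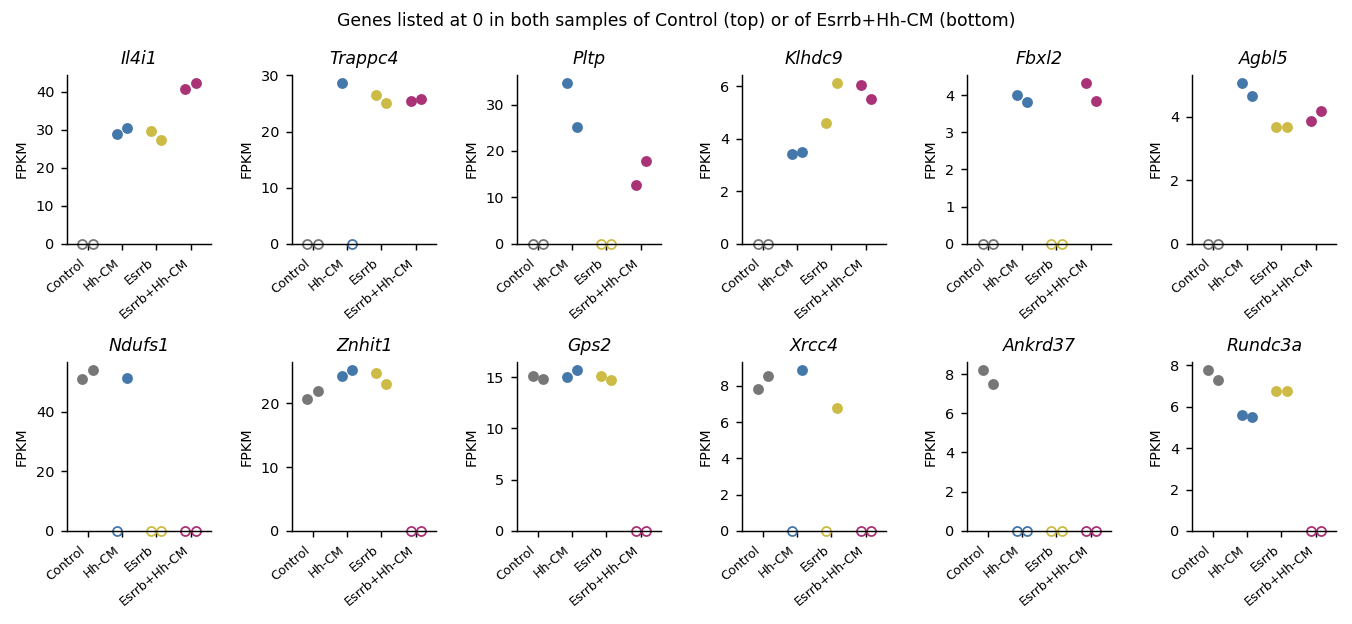
FPKM (vertical axes, each from 0) in each of the 8 samples of 6 genes listed at 0 in both Control samples (top) and 6 listed at 0 in both Esrrb+Hh-CM samples (bottom), with open points where a library was listed at 0. Ndufs1 and Trappc4 show 1 Hh-CM sample at 0 and the other at 51.4 or 28.7.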

How the data were processed

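Total RNA of 8 NIH3T3 samples, 2 in each of 4 groups, was sequenced as mRNA libraries. The deposited values are FPKM per locus, which the authors obtained by trimming with FASTX-Toolkit, alignment to mm9 (Bowtie2, TopHat2) and reference-guided Cufflinks assembly of each sample. Groups came from the sample labels.

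Loci were joined to GENCODE vM1 genes when their overlap was 0.5 or more of their union. Numbers could not be used because at most 106 numbered loci were shared by any pair except Esrrb 1 and Hh-CM 2. FPKM of the loci of 1 gene were summed. Of RefSeq-numbered loci, 98.7% received the symbol of their RefSeq entry. No read counts were given, so relative depth was taken from the steps of low values.

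The model of 4 group means used log2(FPKM + 0.1), limma 3.58.1 (R 4.3.3) and a variance trend, and was tested on simulated data. The other steps ran in Python 3.11.15 with matplotlib 3.10.9, pandas 2.3.3 and numpy 2.4.6. A gene with several promoters in the RefSeq table counted once for a motif.

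Named were the 12 largest rises and falls with no 0 in the compared samples, excluding names of clones, preselected key members and up to 4 called genes a direction of each of 40 lists, the 6 highest set-apart genes a side and the genes measured by qPCR. Some of these are not reported here, and others were named after their values were seen. The genes compared and the lists were chosen with earlier results of these data known.

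Alternatives were pseudocounts of 1 and 0.001, other FPKM limits, the replicate block, only the 4 compared samples, no variance trend, rescaled FPKM, the largest locus alone, adjusted p alone, genes at 0 kept, an overlap of 0.8, identical loci, and each sample left out in turn. Groups of 2 are too small for an outlier test.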

Additional observations from a re-analysis of the deposited data

How the results depend on the processing

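The count of 609 genes (454 up, 155 down) was within 1.5 times under all but 2 of 21 alternatives: 3564 genes with the adjusted p alone and 375 when only genes with the same locus in all 8 samples were kept, which tests fewer genes and gave 33 rises among mitotic genes. The 155 falls were 102 when the FPKM had to reach 1 in all 4 compared samples (354 rises) and 103 with identical loci (272 rises). Against Hh-CM, a pseudocount of 1 gave 112 genes. Without each sample in turn the counts were 609 to 654 against Control, 173 to 212 against Hh-CM and 469 to 516 against Esrrb. The rises among mitotic genes ranged from 33 to 55 and those among replication genes from 24 to 44 over all alternatives.

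The replicate block gave 607 genes (451 up, 156 down), 172 against Hh-CM and 470 against Esrrb. The labels share only replicate numbers, and deviations of same-numbered samples correlated between -0.036 and 0.080. With rescaled FPKM the calls were 405 up and 190 down. Leaving out the 7 genes whose locus covers a neighbour in 1 group, an alternative chosen after seeing the data, gave 602.

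Of 98 named genes, 94 were called and 84 of these kept their call in every alternative that tested them. No named gene reversed. Calls were lost for Wt1 and Ces1d with a pseudocount of 0.001, for Cdkn2d, Tubg1, Col8a1, Ccn3, Actg2 and Irf7 with a pseudocount of 1, and for Cdkn2d, Tubg1 and Cp after rescaling. They were lost for Tubg1, Actg2 and Crabp2 without Control 1, for Col8a1, Actg2 and Irf7 without Control 2, for Cdkn2d, Tubg1 and Col8a1 without Esrrb+Hh-CM 1 and for Irf7 without Esrrb+Hh-CM 2. The cause was not tested. The spread rests on 2 samples a group, and the FPKM carry no counts, so low genes have no counting interval.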

Other observations

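One library outside the compared groups, Esrrb 1, shared the bounds and numbers of 8080 Cufflinks-numbered loci with Hh-CM 2, against at most 106 for any other pair of samples, which were assembled separately according to the methods. It is in neither group of the comparison with Control but is 1 of the 2 samples in the comparison with Esrrb, where 479 genes were called with it and 498 without it, with 420 calls shared. Without Hh-CM 2, 178 genes were called against Hh-CM in place of 179, with 124 shared. Against Control, without Esrrb 1 456 genes rose and 156 fell, and with only the 4 compared samples in the fit 449 rose and 157 fell, with 588 of the 609 calls shared. Dlk1, a secreted regulator of differentiation, had 448 and 450 FPKM in Control, 621 and 605 in Esrrb+Hh-CM, 2590 and 3030 in Hh-CM, and 2042 and 502 in the 2 Esrrb samples. It was chosen after its values were seen.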
